A study of Arabidopsis thaliana with 9 samples.

Results

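The 54 genes described here, out of 26984 named Arabidopsis thaliana genes, were chosen because their mean transcript level lay below that of wild type by fixed ratios in both mutants studied, cop1-6 and the double mutant cor27cor28. Levels are given as FPKM, mapped fragments relative to the length of the transcript and to the size of the library, a unit that allows levels to be compared between genes of different length. A gene was taken when the wild-type mean plus 1, divided by the mutant mean plus 1, was at least 2 for cop1-6 and at least 1.8 for cor27cor28. Below, "ratio" always means this quotient. Both ratios were met by 57 genes, which is 0.211% of the named genes. COR413IM1, FLC and EXPA8 met both and were left out by the rule. PIF4, which the rule also left out, reached 1.86 and 1.88, short of the cop1-6 threshold. The cop1-6 ratio was met by 904 genes (3.35%) and the cor27cor28 ratio by 114 genes (0.422%). Because these values chose the genes, every difference of these genes from wild type is a description without a test. Both ratios were taken against the same 3 wild-type libraries, so a high wild-type library raises both.

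Total RNA was taken from seedlings aged 7 days, grown in short days and collected at ZT20, counted in hours from lights on. Wild type was Col-0, the common laboratory strain. The cop1-6 plants carry a mutant allele of COP1, and the cor27cor28 plants are mutant in both COR27 and COR28. Each genotype had 3 libraries, all from untreated plants as far as the labels say, and neither the lesions nor the background of the mutants is described in them. The labels do not say that replicates came from separate batches of plants, so the p-values below measure only the spread between these samples. In RNA from whole seedlings, fewer cells of a type and less RNA per cell cannot be told apart.

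COP1 is the ubiquitin ligase that, in darkness, marks light-signalling transcription factors for degradation, and its mutants develop in darkness as if in light. COR27 and COR28 are small nuclear proteins controlled by the circadian clock, light and cold, and they are known as substrates of COP1. Both sides of this system act on hypocotyl growth, the night-time elongation of the seedling stem, in which auxin, PIF transcription factors and SAUR proteins take part.

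The 9 libraries had FPKM sums between 515929 and 612462 and between 16062 and 16974 genes at 1 FPKM or more. COP1 was not analysed here. Across the wild-type libraries COR27 had 12.5, 17.4 and 16.2 FPKM, against 2.45, 6.71 and 7.46 across cop1-6 and 48.0, 50.1 and 47.9 across cor27cor28. COR28 had 2.73, 1.92 and 3.08 FPKM across wild type, 0.134, 0.245 and 0.130 across cop1-6 and 2.49, 1.48 and 2.71 across cor27cor28. COR27 was thus highest in the libraries labelled cor27cor28 and COR28 overlapped with wild type there, so these transcripts do not check that label, and "cor27cor28" below means the libraries so labelled. Summed over 18 root marker genes, levels were 92.6 to 96 FPKM in wild type, against 43.6 to 44.5 in cop1-6 and 69.4 to 83.1 in cor27cor28, with no marker at 0 in all libraries. Of these 18 markers, 12 had all wild-type libraries above every cop1-6 library and 6 above every cor27cor28 library. The 11 markers of leaf mesophyll and guard cells, which include the member CAB1, summed to 30583 to 34419 FPKM in wild type, against 20573 to 24352 in cop1-6 and 17645 to 20031 in cor27cor28. Without CAB1, which the rule chose for being low, the other 10 summed to 16392 to 17020 FPKM in wild type, 14290.5 to 16933 in cop1-6 and 10412 to 11771 in cor27cor28. Of the 11 markers, 4 had all wild-type libraries above every cop1-6 library and 4 above every cor27cor28 library. The 5 seed markers found summed to 0.307 to 5.15 FPKM in wild type, against 13.7 to 34.0 in cop1-6 and 0.390 to 2.99 in cor27cor28.

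The 54 genes ranged in wild-type mean from 1.46 to 15691 FPKM, with a median of 10.3 FPKM. Of them, 10 had a wild-type mean of at least 100 FPKM, 17 lay between 10 and 100 FPKM and 27 lay under 10 FPKM. The median ratio was 2.91 against cop1-6 (2.0 to 31.2) and 2.06 against cor27cor28 (1.8 to 31.2), and 46 genes had the larger ratio against cop1-6. The rule set the higher threshold for cop1-6, so the choice of members partly fixed that count. Over all 17075 tested genes the median log2 fold change against wild type was also lower in cop1-6 (-0.21) than in cor27cor28 (0.10). Nothing is therefore read from the count of 46. In 45 of the 54, every wild-type library was above all 6 mutant libraries. Of the 17075 genes that reached 1 FPKM in 3 or more libraries that order was found for 9.73%, and for 44 of the 49 members among them (89.8%), and nothing is read from the contrast because the rule used it. The other 9 were AT1G29775, AT2G47844, AT3G01345, RTFL14, FLP1, AT4G37095, AT5G02540, AT5G04475 and AT5G26620. By known or annotated role there were 7 SAUR genes, 5 growth regulators or signalling peptides, 7 genes of the cell wall and surface and 3 photosynthesis genes. Another 10 encode enzymes, redox proteins or transporters, 7 belong to stress, protein turnover or signalling, and 15 are uncharacterised or have no sure role, 12 of them annotated only as uncharacterized protein.

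**Figure D1:**
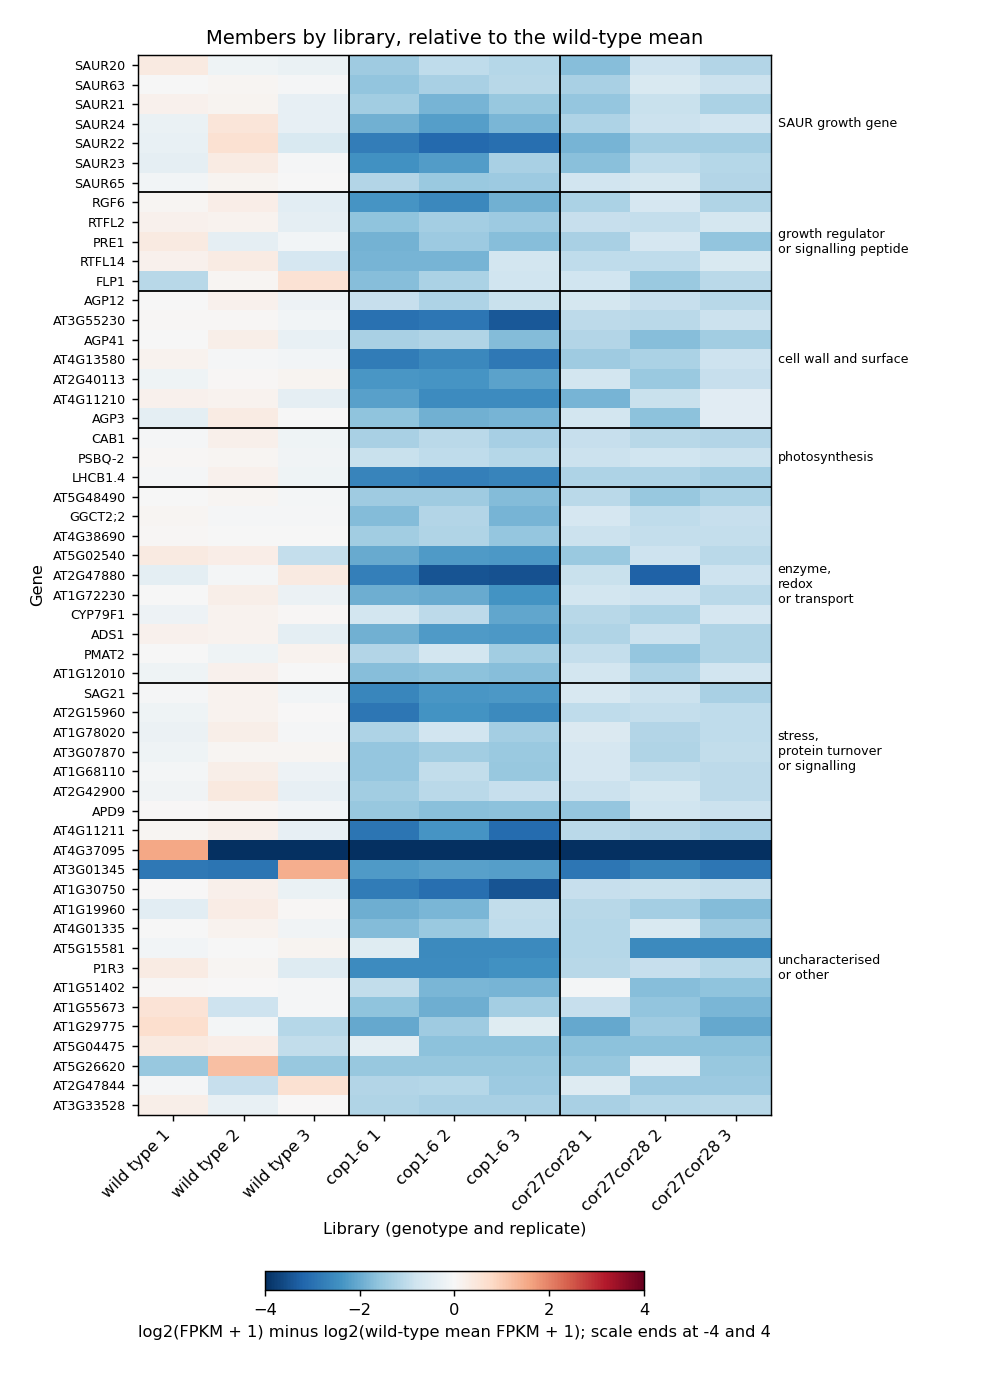
Each of the 54 genes (rows, grouped by role and ordered by wild-type mean within a role) in the 9 libraries (columns), coloured by log2(FPKM + 1) minus log2(wild-type mean FPKM + 1), blue below and red above the wild-type mean. Most rows are pale in wild type, darkest in cop1-6 and intermediate in cor27cor28, while AT4G37095, AT3G01345 and AT5G26620 stand high in 1 wild-type library only.

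**Figure D2:**
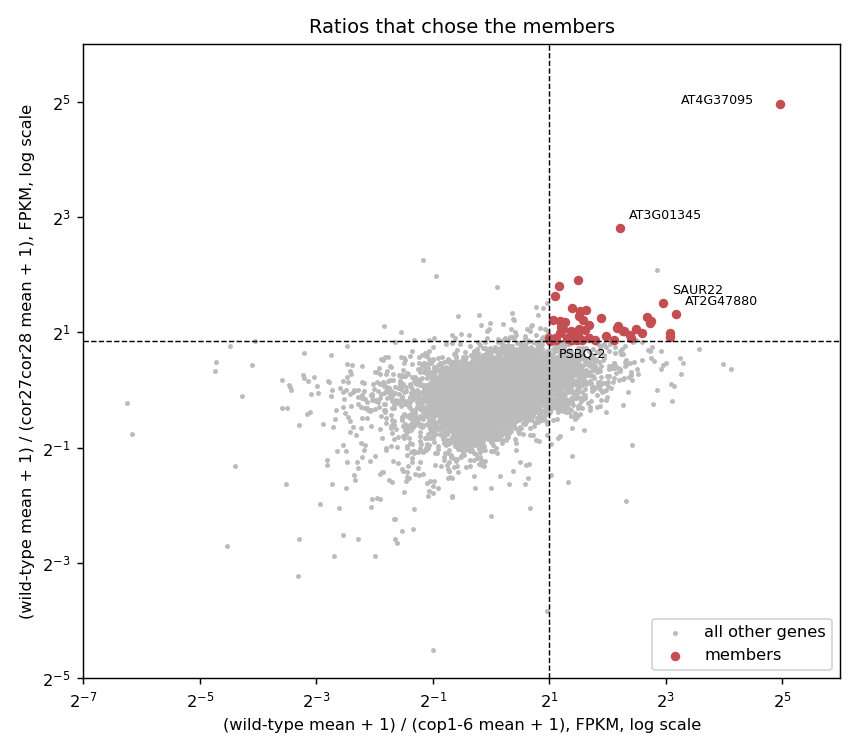
The ratios that chose the genes, for all 26984 named genes, with wild type over cop1-6 on the horizontal and wild type over cor27cor28 on the vertical axis, both on log scales, and dashed lines at 2 and 1.8. The 54 genes (red) fill the upper right corner, PSBQ-2 next to both lines (2.01 and 1.8) and AT4G37095 farthest from them (31.2 and 31.2); grey points in that corner are genes left out by the rule.

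The SAUR genes (SMALL AUXIN UP RNA) encode short proteins that act on the plasma membrane proton pump and so on acid growth, and many of them are induced by auxin. They form the largest family in the set: SAUR20, SAUR21, SAUR22, SAUR23 and SAUR24 lie together on chromosome 5 between positions 5966183 and 5984308 of TAIR10.1, and SAUR63 and SAUR65 lie 2243 bases apart on chromosome 1. Their summed level was 86 ± 13.4 FPKM in wild type, 23.9 ± 2.66 in cop1-6 and 36.2 ± 8.48 in cor27cor28 (SD, n = 3). In all 7 genes the wild-type libraries lay above every mutant library. The ratios ran from 2.26 to 7.79 against cop1-6 and from 1.83 to 2.84 against cor27cor28.

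SAUR22 (AT5G18050, chromosome 5, 5974341 to 5975087, minus strand) had 7.52, 15.2 and 5.86 FPKM across the wild-type libraries, 0.532, 0.209 and 0.314 across cop1-6 and 1.89, 3.11 and 3.1 across cor27cor28. It was nearly silent in cop1-6 and intermediate in cor27cor28, without overlap between the 3 genotypes, and its ratios of 7.79 and 2.84 were the highest of the family. SAUR20 (AT5G18020, chromosome 5, 5966183 to 5966785, minus strand) had 22.6, 15.4 and 14.5 FPKM across the wild-type libraries, 5.97, 8.16 and 7.42 across cop1-6 and 4.66, 9.4 and 7.26 across cor27cor28. Here the mutants overlapped entirely and wild-type replicate 1 stood above the other wild-type libraries. SAUR21 (AT5G18030, chromosome 5, 5968352 to 5969190, plus strand) had 17.3, 16.4 and 12 FPKM across the wild-type libraries, 5.21, 3.43 and 4.72 across cop1-6 and 4.54, 7.77 and 5.78 across cor27cor28, and its mutant libraries also overlapped.

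SAUR23 (AT5G18060, chromosome 5, 5975780 to 5976589, plus strand) had 6.47, 11 and 8.36 FPKM across the wild-type libraries, 0.775, 1.04 and 2.94 across cop1-6 and 2.0, 3.73 and 3.34 across cor27cor28. Its cop1-6 replicate 3 reached into the cor27cor28 range, while the other 2 cop1-6 libraries lay below it. SAUR24 (AT5G18080, chromosome 5, 5983683 to 5984308, plus strand) had 9.45, 16.5 and 8.96 FPKM across the wild-type libraries, 2.34, 1.76 and 2.58 across cop1-6 and 4.34, 5.96 and 6.43 across cor27cor28, with wild type highest, cop1-6 lowest and cor27cor28 between them in every library. SAUR63 (AT1G29440, chromosome 1, 10304507 to 10305108, minus strand) had 16, 17.2 and 15.8 FPKM across the wild-type libraries, 4.84, 6.04 and 7.08 across cop1-6 and 6.12, 10.3 and 8.62 across cor27cor28. SAUR65 (AT1G29460, chromosome 1, 10307352 to 10308246, minus strand) had 6.45, 7.83 and 7.06 FPKM across the wild-type libraries, 2.59, 1.91 and 1.95 across cop1-6 and 3.73, 3.94 and 2.64 across cor27cor28. Wild type was tight for both genes, and the mutants overlapped for SAUR63 but not for SAUR65.

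**Figure D3:**
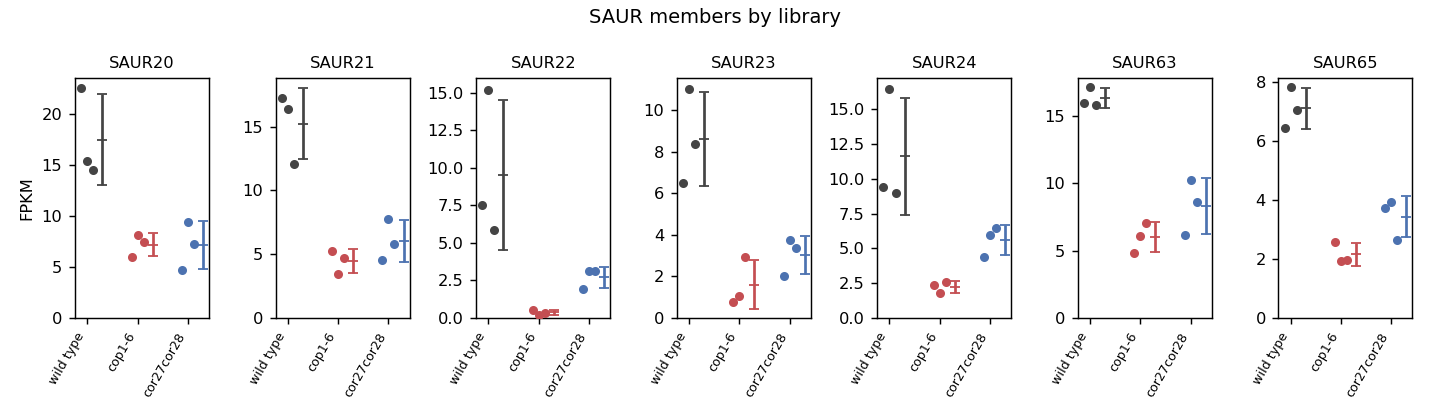
FPKM of the 7 SAUR genes in each library (points; linear axis from 0, a separate scale for each gene), with the mean and SD of the 3 libraries of each genotype beside them. Every wild-type point lies above every mutant point of its gene, and SAUR22 is nearest to 0 in cop1-6 (0.209 to 0.532 FPKM).

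The 5 chromosome 5 SAUR genes are close copies: their coding sequences were 87.7% to 93.0% identical to each other, and 34.2% to 43.2% identical to those of SAUR63 and SAUR65. No source used here says whether the authors' counting split reads between such copies, so the level of a single copy is uncertain. SAUR19, next to SAUR20 and likewise a close copy, was no member. It had 7.88, 10.4 and 5.62 FPKM across the wild-type libraries, 1.11, 0 and 1.34 across cop1-6 and 3.68, 3.86 and 5.45 across cor27cor28, with ratios of 4.94 and 1.68. SAUR64, which lies between SAUR63 and SAUR65, had 11.3, 10.3 and 8.75 FPKM across the wild-type libraries, 4.01, 3.7 and 3.58 across cop1-6 and 6.65, 8.37 and 4.74 across cor27cor28, with ratios of 2.33 and 1.46. Both neighbours thus passed the cop1-6 threshold and missed that for cor27cor28.

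The 250 bases before the annotated start of each chromosome 5 SAUR member are shown because these genes lie close together and are all in the set. The sequences are from the RefSeq TAIR10.1 genome, 5′ to 3′ on the strand of the gene, and capitals mark matches on either strand to CACATG (an E-box bound by PIF factors), TGTCTC (the auxin response element) or AAAAATCT (the CCA1-binding site).
SAUR20 (chr5:5966786-5967035, minus strand): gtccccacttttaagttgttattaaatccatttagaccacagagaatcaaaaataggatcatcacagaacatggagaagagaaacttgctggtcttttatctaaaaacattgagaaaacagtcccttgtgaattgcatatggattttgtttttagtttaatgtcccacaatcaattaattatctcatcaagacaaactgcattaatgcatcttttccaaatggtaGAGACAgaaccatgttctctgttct
SAUR21 (chr5:5968102-5968351, plus strand): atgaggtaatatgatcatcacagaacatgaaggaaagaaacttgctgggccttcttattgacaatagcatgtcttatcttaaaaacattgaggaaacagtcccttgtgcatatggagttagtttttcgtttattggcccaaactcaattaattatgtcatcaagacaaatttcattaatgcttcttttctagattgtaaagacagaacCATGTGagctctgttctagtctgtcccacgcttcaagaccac
SAUR22 (chr5:5975088-5975337, minus strand): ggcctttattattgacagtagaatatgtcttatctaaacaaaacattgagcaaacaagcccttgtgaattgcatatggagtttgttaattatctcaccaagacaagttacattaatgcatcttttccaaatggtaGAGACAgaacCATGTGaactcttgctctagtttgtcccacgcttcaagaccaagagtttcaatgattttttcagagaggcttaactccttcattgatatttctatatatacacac
SAUR23 (chr5:5975530-5975779, plus strand): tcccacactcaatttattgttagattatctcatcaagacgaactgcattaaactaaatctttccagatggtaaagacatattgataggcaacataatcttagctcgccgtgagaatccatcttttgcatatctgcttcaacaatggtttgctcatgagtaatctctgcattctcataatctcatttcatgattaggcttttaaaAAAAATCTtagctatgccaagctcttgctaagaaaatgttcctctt
SAUR24 (chr5:5983433-5983682, plus strand): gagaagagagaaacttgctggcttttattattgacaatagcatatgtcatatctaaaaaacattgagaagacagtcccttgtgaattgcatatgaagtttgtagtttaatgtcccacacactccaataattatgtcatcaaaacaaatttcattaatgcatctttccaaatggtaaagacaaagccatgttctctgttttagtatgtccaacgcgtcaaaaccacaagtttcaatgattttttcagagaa
CACATG was found in SAUR21 and SAUR22, 42 and 105 bases before the start, and TGTCTC in SAUR20 and SAUR22, 25 and 115 bases before it. SAUR23 held AAAAATCT 46 bases before the start, and SAUR24 held none of the searched letters in this window. The windows of SAUR20, SAUR21 and SAUR22 share the 14 bases agacagaaccatgt, which begin 24, 51 and 114 bases before the start. Of the 17074 tested genes with a window, 4 held this stretch, the other being SAUR19. These are descriptions of letters in a window, not of bound sites.

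Growth regulators and signalling peptides made up 5 of the genes. RGF6 (AT4G16515, chromosome 4, 9305166 to 9305845, minus strand), which encodes a secreted peptide of the root meristem growth factor family, had 33, 37.8 and 23.2 FPKM across the wild-type libraries, 5.32, 4.46 and 7.47 across cop1-6 and 12.4, 19.4 and 13.1 across cor27cor28. Its 3 genotypes did not overlap, and its ratios were 4.79 and 2.02; the summed root markers given above were also lower in both mutants, and their part was not tested. PRE1 (AT5G39860, chromosome 5, 15957368 to 15958559, plus strand), a non-DNA-binding bHLH protein that promotes cell elongation downstream of gibberellin and brassinosteroid, had 10.4, 5.94 and 7.33 FPKM across the wild-type libraries, 1.39, 2.25 and 1.72 across cop1-6 and 2.63, 4.57 and 2.01 across cor27cor28. All its wild-type values exceeded the mutant values, and the mutants overlapped.

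RTFL2 (AT2G29125, chromosome 2, 12523276 to 12524193, plus strand), one of the ROTUNDIFOLIA-like small proteins that restrict organ growth when overproduced, had 10.9, 10.8 and 7.29 FPKM across the wild-type libraries, 2.47, 3.14 and 2.92 across cop1-6 and 4.57, 4.51 and 5.55 across cor27cor28. All genotypes were apart, but its cor27cor28 ratio of 1.81 was among the 3 nearest to the threshold. RTFL14, of the same family, had 4.12, 4.71 and 1.88 FPKM across the wild-type libraries, 0.246, 0.252 and 1.72 across cop1-6 and 1.26, 1.26 and 1.98 across cor27cor28, and its wild-type replicate 3 lay inside the mutant range. FLP1, a flowering-promoting-factor-like protein, had 0.521, 2.48 and 3.85 FPKM across the wild-type libraries, 0, 0.378 and 0.904 across cop1-6 and 0.906, 0.184 and 0.551 across cor27cor28. Its wild-type replicate 1 lay inside the mutant range, and it did not reach 1 FPKM in 3 libraries.

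The cell wall and surface group held 7 genes, all with every wild-type library above every mutant library. AGP12 (AT3G13520, chromosome 3, 4408925 to 4409734, plus strand), AGP41 and AGP3 encode arabinogalactan proteins, heavily glycosylated proteins of the cell surface. AGP12 had 161, 186 and 143 FPKM across the wild-type libraries, 85.8, 69.2 and 88.1 across cop1-6 and 99.9, 85.7 and 75.9 across cor27cor28, with the mutants overlapping, and its cop1-6 ratio of 2.0 was the lowest that passed. AGP41 had 8.21, 9.94 and 6.59 FPKM across the wild-type libraries, 2.78, 3.0 and 1.78 across cop1-6 and 3.06, 1.83 and 2.53 across cor27cor28, so both mutants again covered the same range. AGP3 had 2.0, 3.98 and 2.91 FPKM across the wild-type libraries, 0.309, 0.0563 and 0.104 across cop1-6 and 1.37, 0.282 and 1.91 across cor27cor28, near 0 in cop1-6 and in cor27cor28 replicate 2.

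AT3G55230, AT4G13580 and AT4G11210 belong to the dirigent-like family, whose known members guide the coupling of phenolic radicals into lignans and lignin. AT3G55230 (chromosome 3, 20471787 to 20472946, plus strand) had 12.9, 13.1 and 11.4 FPKM across the wild-type libraries, 0.713, 0.819 and 0.277 across cop1-6 and 5.51, 5.35 and 6.44 across cor27cor28. AT4G13580 (chromosome 4, 7900374 to 7901328, plus strand) had 8.33, 7.27 and 6.79 FPKM across the wild-type libraries, 0.228, 0.409 and 0.17 across cop1-6 and 2.14, 2.49 and 3.77 across cor27cor28. In both, cop1-6 was below 1 FPKM in every library, and cor27cor28 lay between cop1-6 and wild type without overlap. AT4G11210 (chromosome 4, 6832650 to 6833498, plus strand) had 5.38, 5.32 and 3.43 FPKM across the wild-type libraries, 0.26, 0 and 0 across cop1-6 and 0.571, 2.08 and 3.2 across cor27cor28, and was listed at 0 in 2 cop1-6 libraries. It neighbours AT4G11211 (chromosome 4, 6836106 to 6836588, plus strand), an uncharacterised gene with a coding sequence of 66 bases that lies 2607 bases further on. AT4G11211 had 182, 199 and 139 FPKM across the wild-type libraries, 22.1, 32.8 and 19.5 across cop1-6 and 81.2, 76.5 and 68.4 across cor27cor28, with no overlap between any 2 genotypes. AT2G40113, annotated in the pollen Ole e 1 allergen and extensin family, had 4.82, 5.78 and 6.05 FPKM across the wild-type libraries, 0.296, 0.28 and 0.483 across cop1-6 and 2.9, 1.33 and 2.45 across cor27cor28, likewise without overlap. The summed root markers given above were also lowest in cop1-6 and between in cor27cor28, and their part in this group was not tested.

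The 3 photosynthesis genes were the most abundant group. CAB1 (AT1G29930, chromosome 1, 10477885 to 10479114, plus strand), one of the genes for the main light-harvesting chlorophyll protein of photosystem II, had 15106, 18027 and 13940.1 FPKM across the wild-type libraries, 6444, 7419.5 and 6283 across cop1-6 and 8259.7, 7233 and 7003 across cor27cor28. Wild type was above both mutants, which overlapped. CAB1 alone made up 1.21% to 2.94% of the FPKM sum of a library and 72.7% of the summed wild-type mean of the 54 genes. LHCB1.4 (AT2G34430, chromosome 2, 14524607 to 14525918, plus strand), a further gene for the same antenna protein, had 494, 576 and 450.4 FPKM across the wild-type libraries, 80.9, 74.5 and 80.3 across cop1-6 and 214, 216 and 198 across cor27cor28. It was lowest in cop1-6 and intermediate in cor27cor28, and it is 1 of 2 genes, with AT5G48490, that met both ratios even between the lowest wild-type and the highest mutant library. PSBQ-2 (AT4G05180, chromosome 4, 2671523 to 2673243, minus strand), a subunit of the oxygen-evolving complex, had 1575, 1592 and 1368 FPKM across the wild-type libraries, 819, 746 and 692 across cop1-6 and 826, 862 and 825 across cor27cor28. Its ratios of 2.01 and 1.8 were next to both thresholds.

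Near copies of the antenna genes were not in the set. CAB2, whose coding sequence is 96.1% identical to that of CAB1, had 1247, 1332 and 1044 FPKM across the wild-type libraries, 1617, 1617 and 1459.8 across cop1-6 and 663, 604 and 607 across cor27cor28, so it was highest in cop1-6 and lowest in cor27cor28. CAB3, 96.4% identical to CAB1, had 1191, 1441 and 1055 FPKM across the wild-type libraries, 701, 798 and 605 across cop1-6 and 546, 527 and 426 across cor27cor28, with ratios of 1.75 and 2.46. LHCB1.5, 91.4% identical to LHCB1.4, had 1112, 1299 and 987 FPKM across the wild-type libraries, 909, 932 and 797 across cop1-6 and 486, 455 and 407 across cor27cor28, with ratios of 1.29 and 2.52. All 3 copies passed the cor27cor28 threshold and missed that for cop1-6. With copies this alike, the division of reads between them is uncertain.

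The windows before CAB1 and LHCB1.4 are shown from the same source, since these copies met both ratios. Those of CAB2, CAB3 and LHCB1.5 are not shown, so no difference between copies is read from the letters. Capitals mark ACGTG (the core of the abscisic acid response element) or AAAAATCT, on either strand.
CAB1 (chr1:10477635-10477884, plus strand): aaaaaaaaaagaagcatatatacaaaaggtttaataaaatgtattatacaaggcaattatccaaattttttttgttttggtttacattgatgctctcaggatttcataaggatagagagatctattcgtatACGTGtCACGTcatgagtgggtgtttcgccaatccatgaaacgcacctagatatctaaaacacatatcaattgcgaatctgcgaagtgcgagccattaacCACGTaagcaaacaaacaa
LHCB1.4 (chr2:14524357-14524606, plus strand): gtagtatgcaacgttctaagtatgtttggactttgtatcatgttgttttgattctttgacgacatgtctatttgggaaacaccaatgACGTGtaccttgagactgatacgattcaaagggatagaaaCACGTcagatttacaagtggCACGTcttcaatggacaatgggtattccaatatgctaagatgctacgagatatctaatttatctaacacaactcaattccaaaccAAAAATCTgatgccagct
CAB1 held ACGTG 119, 113 and 19 bases before the start, and LHCB1.4 held it 163, 123 and 103 bases before it and AAAAATCT 18 bases before it.

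Among the 10 genes for enzymes, redox proteins and transporters, AT5G48490 (chromosome 5, 19647784 to 19648362, minus strand), annotated in the lipid-transfer protein superfamily, had 179.9, 190.3 and 172 FPKM across the wild-type libraries, 67.2, 67.4 and 53.9 across cop1-6 and 84.6, 62.3 and 74.8 across cor27cor28. The wild-type libraries were tight and the mutants overlapped at a lower level. GGCT2;2 (AT4G31290, chromosome 4, 15185775 to 15188484, plus strand), a gamma-glutamyl cyclotransferase annotated in the ChaC-like family, had 139.5, 127 and 128 FPKM across the wild-type libraries, 39, 57.6 and 35.7 across cop1-6 and 82, 64 and 69.6 across cor27cor28. AT4G38690, annotated as a phospholipase C-like phosphodiesterase, had 50.8, 49.3 and 48.9 FPKM across the wild-type libraries, 18.4, 20.9 and 16.2 across cop1-6 and 27, 25.4 and 25.2 across cor27cor28. In these last 2 genes the order was wild type, cor27cor28 and cop1-6, with no overlap.

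AT2G47880, a glutaredoxin, had 13.9, 17.3 and 23.7 FPKM across the wild-type libraries, 1.92, 0.761 and 0.741 across cop1-6 and 9.34, 1.03 and 9.88 across cor27cor28. Its cor27cor28 replicate 2 was at the cop1-6 level while the other 2 libraries stayed near 10 FPKM, so that the cor27cor28 mean described no single library. It had the second largest cop1-6 ratio, 9.01, and lies 9590 bases from AT2G47844, an uncharacterised member. AT2G47844 had 1.61, 0.433 and 3.13 FPKM across the wild-type libraries, 0.219, 0.242 and 0 across cop1-6 and 0.924, 0 and 0 across cor27cor28, and its wild-type replicate 2 lay inside the mutant range.

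CYP79F1 (AT1G16410), which makes aldoximes from chain-elongated methionine in glucosinolate synthesis, had 9.37, 12.2 and 11.5 FPKM across the wild-type libraries, 6.21, 4.8 and 1.87 across cop1-6 and 4.51, 3.97 and 6.58 across cor27cor28. Wild type was above both mutants, and cop1-6 spread from 1.87 to 6.21 FPKM. AT5G02540, annotated with a NAD(P)-binding Rossmann fold, had 27.1, 25.2 and 10.4 FPKM across the wild-type libraries, 4.45, 3.51 and 3.5 across cop1-6 and 6.75, 11.3 and 9.44 across cor27cor28, and its wild-type replicate 3 lay within the cor27cor28 range. AT1G72230, a cupredoxin or blue copper protein, had 11.9, 14.5 and 10.2 FPKM across the wild-type libraries, 2.38, 2.26 and 1.54 across cop1-6 and 6.95, 6.46 and 5.27 across cor27cor28. ADS1 (AT4G29140), a MATE-type transporter, had 7.77, 7.63 and 4.86 FPKM across the wild-type libraries, 1.05, 0.607 and 0.561 across cop1-6 and 2.38, 3.27 and 2.35 across cor27cor28. In both of these the genotypes were fully ordered, cop1-6 lowest. PMAT2 (AT3G29670), an acyltransferase, had 6.38, 5.62 and 7.16 FPKM across the wild-type libraries, 2.31, 3.47 and 1.79 across cop1-6 and 2.86, 1.53 and 2.18 across cor27cor28, with the mutants overlapping. AT1G12010, annotated as an oxygenase dependent on 2-oxoglutarate and iron, had 3.56, 4.74 and 4.02 FPKM across the wild-type libraries, 0.561, 0.639 and 0.561 across cop1-6 and 2.08, 1.16 and 1.99 across cor27cor28, lowest in cop1-6 without overlap.

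In the group of stress, protein turnover and signalling, SAG21 (AT4G02380, chromosome 4, 1046042 to 1047105, minus strand), a small late-embryogenesis-abundant protein induced by senescence and oxidative stress, had 2242, 2562 and 2141 FPKM across the wild-type libraries, 379, 459.8 and 467 across cop1-6 and 1477, 1279 and 947 across cor27cor28. It was the second most abundant of the 54 genes, and the genotypes were fully ordered, cop1-6 lowest. AT2G15960 (chromosome 2, 6947096 to 6947866, plus strand), annotated as a stress-induced protein, had 242, 299 and 279 FPKM across the wild-type libraries, 36.3, 51.8 and 46.1 across cop1-6 and 135, 139.7 and 136 across cor27cor28. Its 3 cor27cor28 libraries differed little and stayed apart from both other genotypes. AT3G07870, an F-box protein, had 81.5, 96.7 and 95.5 FPKM across the wild-type libraries, 30.5, 33.9 and 32.2 across cop1-6 and 56.5, 38.8 and 45.3 across cor27cor28, in the same order.

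AT1G78020, annotated as senescence-associated with a DUF581 domain, had 97.6, 136 and 109.8 FPKM across the wild-type libraries, 47.9, 67.4 and 44.4 across cop1-6 and 75.7, 50.7 and 55.8 across cor27cor28. AT1G68110, of the ENTH/ANTH/VHS superfamily, had 13.6, 17.2 and 12.3 FPKM across the wild-type libraries, 4.21, 6.72 and 4.41 across cop1-6 and 8.72, 6.85 and 6.44 across cor27cor28. AT2G42900, annotated as a basic secretory protein, had 12, 17.9 and 10.4 FPKM across the wild-type libraries, 4.54, 5.84 and 6.61 across cop1-6 and 6.93, 7.85 and 5.91 across cor27cor28. In these 3 genes wild type was highest and the mutants overlapped. APD9 (AT5G66080), a clade D phosphatase of the 2C family, some of whose members are inhibited by SAUR proteins, had 4.74, 5.04 and 4.32 FPKM across the wild-type libraries, 0.975, 0.771 and 0.821 across cop1-6 and 0.941, 2.26 and 2.14 across cor27cor28, where cor27cor28 replicate 1 lay in the cop1-6 range.

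The last 15 genes carry no sure role, and several are low or rest on 1 library. AT1G30750 had 14.1, 16.4 and 11.5 FPKM across the wild-type libraries, 1.15, 0.837 and 0.358 across cop1-6 and 6.88, 7.17 and 6.76 across cor27cor28, the third largest cop1-6 ratio of the set at 8.41. P1R3 (AT3G29370) had 6.13, 5.07 and 2.98 FPKM across the wild-type libraries, 0, 0 and 0.0729 across cop1-6 and 1.64, 2.02 and 1.61 across cor27cor28, so it was at or near 0 in cop1-6. Both were fully ordered, with cor27cor28 between cop1-6 and wild type. AT1G19960 had 4.41, 7.8 and 6.46 FPKM across the wild-type libraries, 0.852, 1.01 and 2.68 across cop1-6 and 2.37, 1.81 and 1.17 across cor27cor28. The low gene AT4G01335 had 5.04, 5.65 and 4.49 FPKM across the wild-type libraries, 0.822, 1.19 and 2.02 across cop1-6 and 1.78, 2.94 and 1.26 across cor27cor28. In each case the mutants overlapped below wild type.

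AT4G37095, which has the largest ratios of all, was listed at 90.6 FPKM in wild-type replicate 1 and at 0 in the other 8 libraries. AT3G01345 had 1.25, 1.13 and 43.3 FPKM across the wild-type libraries, 2.37, 2.6 and 2.53 across cop1-6 and 1.21, 1.56 and 1.17 across cor27cor28, so that wild-type replicate 3 alone lifted it above the thresholds. AT5G26620 had 0, 5.58 and 0 FPKM across the wild-type libraries, 0, 0 and 0 across cop1-6 and 0, 1.13 and 0 across cor27cor28, a value in 1 wild-type and 1 mutant library only. Their membership rests on a single wild-type library, and each left the set when that library was left out. AT5G15581 had 4.45, 4.72 and 5.29 FPKM across the wild-type libraries, 3.17, 0 and 0 across cop1-6 and 1.66, 0 and 0 across cor27cor28, with 4 mutant libraries at 0. AT5G04475 had 2.97, 2.74 and 0.562 FPKM across the wild-type libraries, 1.35, 0 and 0 across cop1-6 and 0, 0 and 0 across cor27cor28. For AT1G29775 the values were 5.51, 2.9 and 0.872 FPKM across the wild-type libraries, 0, 0.512 and 1.92 across cop1-6 and 0, 0.527 and 0 across cor27cor28. Both had 1 mutant library inside the wild-type range. AT1G51402 had 4.94, 4.73 and 4.51 FPKM across the wild-type libraries, 1.92, 0.622 and 0.586 across cop1-6 and 4.41, 0.743 and 0.892 across cor27cor28. Its cor27cor28 replicate 1 was next to the lowest wild-type library, and the gene left the set without cor27cor28 replicate 2 or replicate 3. AT1G55673 had 5.38, 1.42 and 3.21 FPKM across the wild-type libraries, 0.41, 0.111 and 0.687 across cop1-6 and 1.31, 0.448 and 0.224 across cor27cor28. AT3G33528 had 1.92, 0.992 and 1.48 FPKM across the wild-type libraries, 0.0682, 0 and 0 across cop1-6 and 0, 0.126 and 0.13 across cor27cor28. In all 3 genes every wild-type library was above every mutant library and the mutants overlapped.

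At the cop1-6 threshold the members just inside were AGP12 (2.0), PSBQ-2 (2.01) and PMAT2 (2.1), and the genes just outside were STOMAGEN (1.97), AGP21 (1.96) and AT1G80165 (1.96). At the cor27cor28 threshold PSBQ-2 (1.8), RTFL2 (1.81) and AGP3 (1.81) were just inside and AT1G19070 (1.79), ESP (1.78) and SBH2 (1.78) just outside. Of the 54 genes, 23 stayed in the set whichever 1 of the 9 libraries was left out, and 31 were lost without at least 1 library. PSBQ-2 was lost in 6 of the 9 cases. The 23 included CAB1, LHCB1.4, AT5G48490, AT2G15960, AT4G11211, AT3G55230, AT4G13580, RGF6, PRE1, SAUR21, SAUR22 and SAUR23. Of these named genes, CAB1 left the set under median-of-ratios scaling and stayed with equal FPKM totals, and the others stayed under both. Among the members outside the 23, PSBQ-2, SAUR20, AGP12, AT1G78020, AT2G42900, PMAT2 and AT5G04475 left under both scalings. CYP79F1 left under median-of-ratios scaling only. With equal FPKM totals only, SAG21, SAUR24, SAUR63, SAUR65, AGP3, RTFL2, RTFL14, GGCT2;2, AT1G12010, AT1G30750, AT1G68110, AT1G72230 and AT3G07870 left. AT4G38690, 1 of the 23, also left with equal FPKM totals only.

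The comparison of the mutants with each other was not used by the rule, although both group means entered it, and asks in which of them each gene lay lower. Of the 54 genes, 49 reached 1 FPKM in 3 or more libraries and were tested in the fit across 17075 genes. Some of the 49, among them AGP3, APD9, AT1G55673, AT5G04475 and AT5G15581, reached this minimum only with the wild-type libraries, by which they were chosen. Their place in the test, and so the share of the 49, rests partly on that choice. The test was limma on log2(FPKM + 1), with a Benjamini-Hochberg adjusted p under 0.05 called. In it, 28 of the 49 were lower in cop1-6 than in cor27cor28 (57.1%), beside 56.6% of all tested genes. None was called higher in cop1-6, beside 9.19% of all tested genes, and at an unadjusted p under 0.05 the count was also 0. Without wild-type replicate 3, AT3G01345 was called higher (log2 fold change 0.60, limma adjusted p = 0.00328). The median log2 fold change, cop1-6 minus cor27cor28, was -0.51 over the 49 genes and -0.36 over all tested genes.

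That common shift depends on the scaling. With median-of-ratios scaling in place of the deposited values, the median over all genes was -0.02, and 16 of 50 genes (32.0%) were lower in cop1-6, beside 14.1% of all tested genes. None was then called higher, beside 19.4% of all tested genes, with 1, PSBQ-2, at an unadjusted p under 0.05 (log2 fold change 0.24, limma adjusted p = 0.107), and none of the 28 changed sign. The other 12 of the 28 were then no longer called (adjusted p from 0.0605 to 0.806). The median of the set was -0.23 on that scale. By library order in the deposited values, 23 of the 49 tested members (46.9%) had all cop1-6 libraries below all cor27cor28 libraries, beside 59.8% of tested genes, and 1 (2.04%) had the reverse order, AT3G01345, beside 9.94%. None of the 5 untested members had either order. Because the rule set the higher threshold for cop1-6 and used both group means, the choice of members partly fixed the direction of these counts, and nothing is read from the members' shares against those of all genes.

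The largest differences between the mutants were found in genes of several roles. AT1G30750 had a log2 fold change of -2.18 ± 0.17 (SE; adjusted p = 9.88e-07), from 6.93 ± 0.212 FPKM in cor27cor28 to 0.782 ± 0.400 in cop1-6 (SD, n = 3). The dirigent-like genes followed, AT3G55230 with -2.09 ± 0.15 (adjusted p = 4.17e-07) and AT4G13580 with -1.56 ± 0.17 (adjusted p = 1.34e-05). AT2G15960 differed by -1.61 ± 0.12 (adjusted p = 5.66e-07) and its fellow stress gene SAG21 by -1.48 ± 0.15 (adjusted p = 6.67e-06). For AT4G11211 the value was -1.60 ± 0.17 (adjusted p = 1.30e-05). Over the 16 alternatives tried, the limma adjusted p of these 6 genes stayed between 2.42e-07 and 0.000494.

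Differences of similar size were also called in SAUR22 (-1.44 ± 0.27, adjusted p = 0.00066), LHCB1.4 (-1.40 ± 0.09, adjusted p = 1.90e-07) and RGF6 (-1.24 ± 0.21, adjusted p = 0.000338). AT2G47880 was called at -1.56 ± 0.50 (adjusted p = 0.0166), but the call ended without cor27cor28 replicate 1 (adjusted p = 0.0725) or replicate 3 (adjusted p = 0.0737) and under median-of-ratios scaling (adjusted p = 0.0695). The smallest called differences were SAUR63 (-0.41 ± 0.16), AT1G68110 (-0.46 ± 0.17), AT4G38690 (-0.47 ± 0.09) and SAUR65 (-0.49 ± 0.15). Each of these 4 lost its call under median-of-ratios scaling, with log2 fold changes of -0.06, -0.12, -0.09 and -0.20 in that order (adjusted p = 0.806, 0.664, 0.531 and 0.327). In 7 of the 28, AGP3, APD9, AT1G68110, AT2G47880, SAUR23, SAUR63 and SAUR65, the call also ended when some single libraries were left out. This held for 7 of the 9 libraries in SAUR63, 5 in SAUR23, 3 in AT1G68110 and in APD9, 2 in AGP3 and in AT2G47880, and cor27cor28 replicate 2 alone in SAUR65. The calls of SAUR23, SAUR63 and AT1G68110 ended with equal FPKM totals and with no FPKM minimum too, and those of SAUR23 and SAUR63 without the variance trend.

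The 21 genes that did not pass included CAB1 (-0.16 ± 0.13, adjusted p = 0.274), PSBQ-2 (-0.16 ± 0.09, adjusted p = 0.128), AGP12 (-0.10 ± 0.13, adjusted p = 0.474) and PRE1 (-0.51 ± 0.23, adjusted p = 0.0692). Of the SAUR genes, SAUR22, SAUR23, SAUR24, SAUR63 and SAUR65 were called lower in cop1-6, of which only SAUR22 and SAUR24 were still called under median-of-ratios scaling (SAUR23 at -0.44, adjusted p = 0.267). The deposited values left SAUR20 (0.05 ± 0.21) and SAUR21 (-0.35 ± 0.19) uncalled. A difference between SAUR genes was not tested. For all genes that were not called, a p above the threshold does not show that the mutants were alike.

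**Figure D4:**
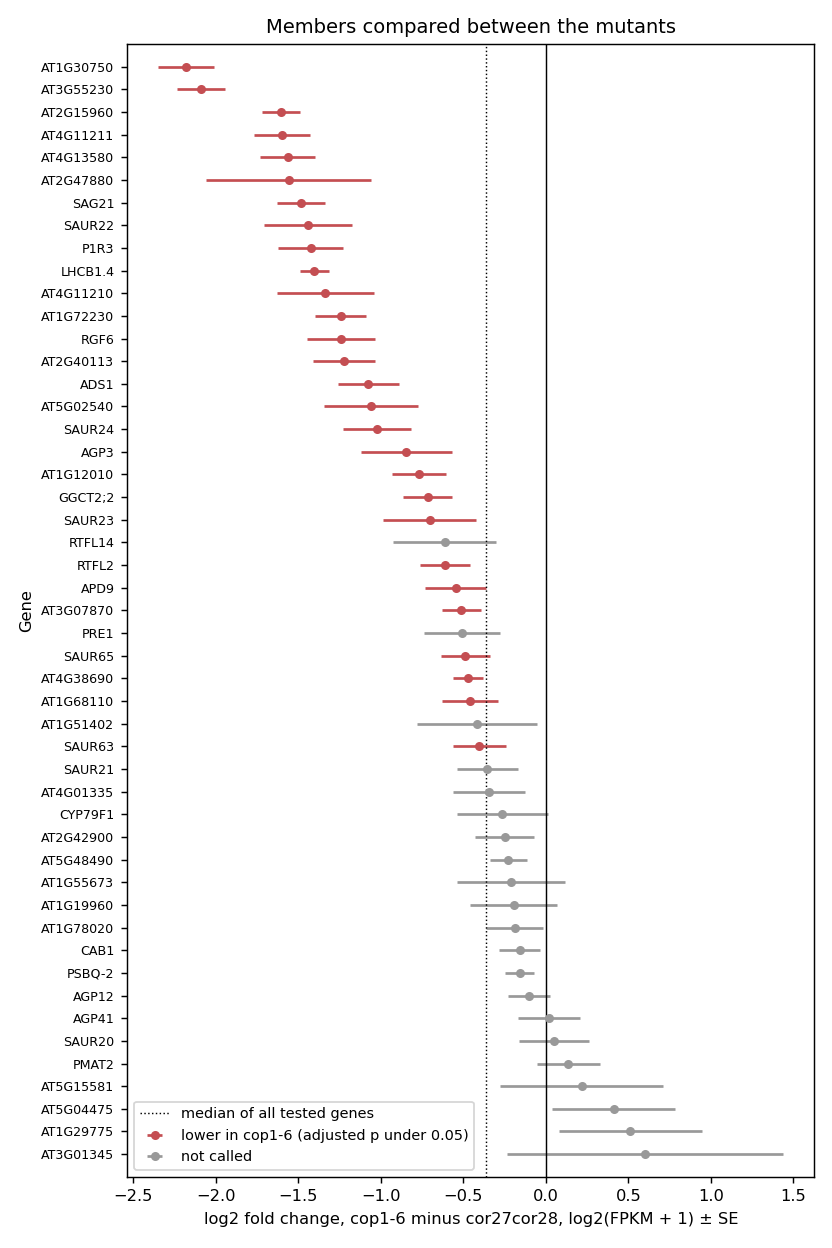
Log2 fold change on the log2(FPKM + 1) scale, cop1-6 minus cor27cor28, with its standard error, for the 49 tested genes in order; red points were called lower in cop1-6, grey points were not called, and the dotted line is the median of all tested genes (-0.36). The 28 red points all lie left of 0, from -2.18 in AT1G30750 to -0.41 in SAUR63.

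The families of these genes were then examined in the members of each family that did not meet the rule. Comparisons with wild type were tested there with limma. Among all tested genes, 38.6% were lower and 10.9% higher in cop1-6, and 7.29% lower and 14.6% higher in cor27cor28. These tests used the same libraries and contrasts as the rule. A family was taken because it held a member, and its members, low in both mutants, were left out. That choice partly fixed the counts and medians below, so nothing is read from them against all genes. Of 44 tested SAUR genes outside the set, 25 were lower and 2 higher in cop1-6, and 9 were lower and 2 higher in cor27cor28. Under median-of-ratios scaling these counts were 21 and 6 in cop1-6 and 11 and 1 in cor27cor28. On that scale 20.5% of all tested genes were lower and 22.5% higher in cop1-6, and 12.5% lower and 7.4% higher in cor27cor28. With FPKM totals made equal, 23 of these SAUR genes were lower and 5 higher in cop1-6, and 8 lower and 2 higher in cor27cor28. The shares over all genes were then 23.6% and 17.5% in cop1-6, and 4.93% and 25.3% in cor27cor28. The number lower in cor27cor28 was 5 without wild-type replicate 1, wild-type replicate 2 or cor27cor28 replicate 1, and 4 without cor27cor28 replicate 2. The number higher in cop1-6 was 4 without wild-type replicate 2 or cop1-6 replicate 1, and the number higher in cor27cor28 was 1 when any of 6 libraries was left out. The median log2 fold change of these 44 genes was -0.61 in cop1-6 and -0.23 in cor27cor28, against -0.21 and 0.10 over all genes.

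Antenna genes outside the set were counted in the same way. Of 19, 17 were lower in cor27cor28, with a median of -0.94, and the other 2 were not called. In cop1-6, 10 were lower and 7 higher, which became 3 lower and 9 higher under median-of-ratios scaling, and 6 lower and 8 higher when FPKM totals were made equal. Of 33 photosystem, electron transport and Rubisco genes, 28 were lower in cor27cor28 and 5 were not called, with 1 called higher without wild-type replicate 2, cop1-6 replicate 2 or cop1-6 replicate 3. In cop1-6, 17 of them were lower and 3 higher, against 4 lower and 9 higher under median-of-ratios scaling, and 5 lower and 9 higher with totals made equal. This list was drawn by symbol and also took in PSAT and PSAT1, which encode phosphoserine aminotransferases.

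Of 21 tested shade and growth regulators beside PRE1, 15 were lower and 6 were not called in cop1-6, and 3 were lower and 1 higher in cor27cor28. Under median-of-ratios scaling, with equal totals and without cor27cor28 replicate 1, 2 were higher in cop1-6. The number lower in cop1-6 was 13 under median-of-ratios scaling and also 13 with equal totals. Of 24 glucosinolate genes beside CYP79F1, 17 were lower and 7 were not called in cop1-6, and 4 were lower and 2 higher in cor27cor28. In cop1-6, 12 were lower under median-of-ratios scaling and 13 with totals made equal. For cor27cor28 the counts were 4 and 1 under median-of-ratios scaling and 4 and 3 with totals made equal. The number lower in cor27cor28 was 1 without wild-type replicate 2 or cor27cor28 replicate 2, and 2 without wild-type replicate 3. The number higher there was 1 without wild-type replicate 1 or 3 or any 1 cor27cor28 library. Of 45 cell wall structural genes beside the 3 arabinogalactan members, a list drawn by symbol that includes the splicing genes PRP39 and EMB3011, 28 were lower and 6 higher in cop1-6. Those cop1-6 counts became 23 lower and 7 higher under median-of-ratios scaling, and the same with totals made equal. In cor27cor28, 6 were lower and 1 higher, against 15 lower under median-of-ratios scaling and 5 lower and 5 higher with totals made equal. That count of 1 higher was 0 to 3 when single libraries were left out, and stayed at 1 only without cop1-6 replicate 1. The other 14 lists examined held none of the 54 genes.

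Transcript structure was not used by the rule, and is described here without a test. The median transcript was 863 bases against 1702 bases over the 17075 tested genes, and 35 of the 54 (64.8%) were shorter than 1000 bases, against 14.3%. A single exon was annotated for 34 (63.0%), against 14.9%. Over the 49 members among the tested genes, the median was 895 bases, 63.3% were under 1000 bases and 65.3% had a single exon. Among the 139 tested genes under 500 bases, 7 (5.04%) met the rule, and the share was 1.04%, 0.256%, 0.117% and 0.0331% in the successive longer classes. Of these 7, AT1G29775, AT5G04475 and RTFL14 were low genes whose wild-type and mutant libraries overlapped, and SAUR20 left the set without wild-type replicate 1. The 94 genes that met the same ratios upwards had a median of 1437 bases, and 24.5% of them were under 1000 bases. Length also went with the values of all genes: the median log2 fold change of cor27cor28 against wild type was 0.02 under 500 bases and 0.15 at 2000 bases or more, and that of cop1-6 was -0.32 and -0.18. The part of length in membership was not tested. The median coefficient of variation between wild-type libraries was 18.2% in the set and 10.2% over the tested genes. Unlike structure, this measure rests on the wild-type values that the rule used. A high wild-type library raises both the mean and the variation, so nothing is read from the difference.

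**Figure D5:**
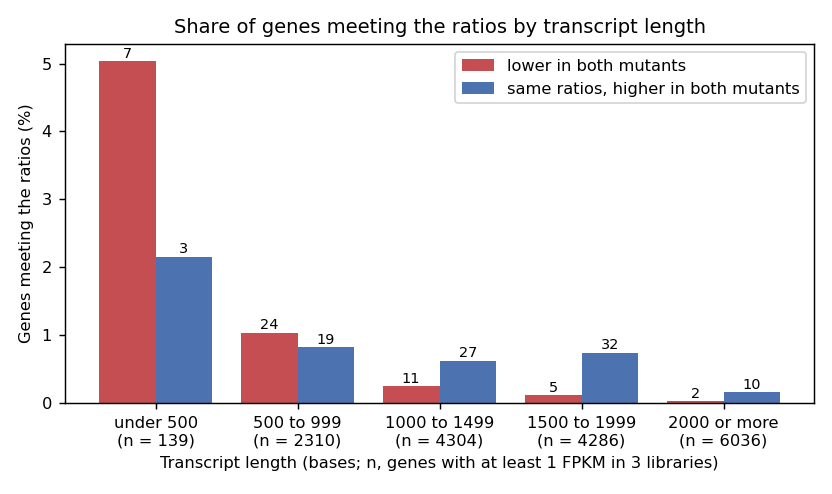
Share of genes that met the rule, by transcript length class, for the genes lower in both mutants (red) and those meeting the same ratios upwards (blue), with the number of genes above each bar; only genes that reached 1 FPKM in 3 or more libraries are counted. The red bars fall from 5.04% under 500 bases to 0.0331% at 2000 bases or more.

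Motifs were counted in the 250 bases before the start of all 54 genes and of 17074 tested genes, on both strands. Of the 54, 5 were not among the tested genes. CACATG was present in 10 of the 54 (18.5%) and in 10.8% of all. The 10 were SAUR21, SAUR22, SAUR63, SAUR65, RTFL2, AT2G42900, AT4G01335, AT4G11210, AT5G04475 and APD9. SAUR21 and SAUR22 are close copies whose match overlaps the 14 bases they share, and SAUR63 and SAUR65 are neighbours of the same family. The 10 are therefore not all independent. The G-box CACGTG was found in 4 (7.41%, against 7.44%), in AT1G68110, AT2G15960, PSBQ-2 and APD9. The evening element AAAATATCT was found in 1 (1.85%, against 2.47%), AT2G15960, and AAAAATCT in 4 (7.41%, against 6.91%). TGTCTC was present in 5 (9.26%, against 10.5%) and ACGTG, which every CACGTG contains, in 11 (20.4%, against 23.3%). These shares are descriptions without a test.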

How the data were processed

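RNA sequencing gave 1 FPKM value per gene and library for 9 libraries, 3 per genotype as labelled. Per the submitters' processing notes the authors used HISAT2 2.2.1.0, TopHat, Bowtie2, Cufflinks, Trimmomatic 0.36 and DESeq 1.18.0 with the TAIR10 build. The notes do not say which of these made the deposited FPKM or whether strand was used. In each library 13 entries without a gene name, 0.000197% to 0.00203% of the FPKM sum, were left out. Read depth is unknown; the spacing of low values gave relative depths of 0.999 to 1.06, and no counting interval was computed. An FPKM value depends on all other genes of its library.

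Genes that reached 1 FPKM in 3 or more libraries were fitted in limma 3.58.1 (R 4.3.3) on log2(FPKM + 1), a scale that understates changes of low genes, with 3 genotypes, a variance trend and Benjamini-Hochberg adjustment. The fit was tested on simulated data. The members, role groups and lists were chosen with earlier results of these data known. Genes named were the 12 most abundant, the 8 largest ratios against each mutant, the 8 largest and smallest called differences between the mutants, up to 4 per list, those next to the thresholds and neighbouring members. The remaining members were named after their values were seen, so that each is accounted for. Annotation and sequence came from RefSeq TAIR10.1. Alternatives were pseudocounts of 0.5 and 0.1, median-of-ratios scaling, equal FPKM totals, no FPKM minimum, a replicate block, no variance trend, each library left out, and, for the rule, group medians and the lowest against the highest library. Applying them to the lists was decided after seeing the data.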

Additional observations from a re-analysis of the deposited data

How the results depend on the processing

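The number of genes meeting the rule was 86 with a pseudocount of 0.5 and 265 with 0.1, which admit more genes with low values, 33 with equal FPKM totals, and 2 when the lowest wild-type library was set against the highest mutant library. The cause of the change with equal totals was not tested. Median-of-ratios scaling gave 65 genes, 45 of them shared, and group medians gave 68, with 40 shared. Leaving out 1 library gave 48 to 73 genes. Between the mutants, median-of-ratios scaling left 16 of the set called lower in cop1-6, and 2397 lower and 3300 higher over all genes against 9666 and 1569 as reported. Without 1 library, 24 to 29 of the set were called lower and 0 to 1 higher. Same-numbered libraries did not deviate together (r from -0.18 to 0.12 across genes, which are not independent replicates), so the numbers were not taken as pairs. With a replicate block, 28 genes of the set were lower, and 9169 lower and 1522 higher over all genes. No direction of the 8 named genes with the largest differences reversed under the alternatives. With 3 libraries per genotype and unknown depth, values near 0 cannot be told from absence. The mutants share the wild-type libraries, so their ratios are not independent.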
